A study of Mus musculus with 2 samples.

Results

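Heterogeneous nuclear ribonucleoproteins (hnRNPs) coat newly made RNA in the nucleus. This account covers Hnrnpu and 9 abundant hnRNP genes, Hnrnpul1, Hnrnpul2, Hnrnpa1, Hnrnpa2b1, Hnrnpc, Hnrnpk, Hnrnpl, Hnrnpm and Hnrnpr. They were picked by symbol with results of these data already known, and each of the 10 symbols matched 1 row among the 44002 rows of the authors' deposited table. Poly(A) RNA of whole testis was sequenced from balb/c mice aged 45 postnatal days. The BPA library came from animals exposed to bisphenol A, a plastics monomer with estrogen-like activity, and the control library from mice of the same strain and age with no treatment in its labels. In each group 3 samples were mixed before sequencing, so there was 1 library per group (here called the BPA pool and the control pool), the spread between animals was not measured, and no test between the conditions was possible. The sources used here give no dose, route or length of exposure. Because whole tissue was sequenced, fewer cells of a type and less RNA per cell cannot be told apart.

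hnRNP proteins bind RNA through RNA recognition motifs, KH domains or repeats of arginine and glycine, and they steer splicing, export and stability. Hnrnpu, also called scaffold attachment factor A, joins a DNA-binding SAP domain to an RNA-binding tail of arginine and glycine repeats and holds chromatin-associated RNA, Xist among them, in place in the nucleus. Its paralogs Hnrnpul1 and Hnrnpul2 share that overall build and take part in the response to DNA breaks. In the testis, where splicing is unusually varied, hnRNP proteins are found in germ and somatic cells, and X-linked members are silenced together with the rest of the X chromosome during male meiosis.

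Levels are given as CPM, counts per 1000000 reads of a library. The deposited values run in whole steps of 1 read, which give 45162887 listed reads for BPA and 41711330 for control. Genes were called by size alone, where the BPA over control ratio, with 0.1 CPM added to both values, reached 1 in size on the log2 scale (2-fold), among the 19389 genes with at least 1 CPM in the higher library. Intervals are exact 95% intervals of the reads and cover counting error only, not the spread between animals or library preparations.

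Hnrnpu was the member that stood apart. It had 13.1 CPM (595 reads) in the BPA pool, against 84.6 CPM (3536 reads) in the control pool. The counting intervals of the levels were 12.1 to 14.2 CPM in the BPA pool and 81.8 to 87.4 CPM in the control pool. The ratio was 0.155 (0.142 to 0.169), which is 6.45-fold lower in the BPA pool (5.91 to 7.05), with a log2 ratio of -2.68. A counting interval that excluded 1 was common, found for 43.1% of the 19389 genes with at least 1 CPM in the higher library. In the authors' deposited table Hnrnpu has a log2 fold change of -2.69 and a q-value of 9.84e-11, and it was 1 of the 28 genes the authors called in either direction, 0.0956% of the rows with a q-value, and 1 of the 12 they called lower (0.041%). Hnrnpu was chosen for this difference, so these values describe the 2 libraries and test nothing.

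By the 2-fold rule 1 of the 10 genes was lower in the BPA pool and 0 were higher. Over all genes at the floor, 1.95% were lower and 1.32% higher. Such differences were rarer among well-expressed genes: of 4193 genes with a mean level within 2-fold of the mean of Hnrnpu (48.9 CPM), 11 were lower, or 0.262%, and 14 were higher, or 0.334%. In that set 4 genes had a lower log2 ratio than Hnrnpu, and log2 ratios had a robust SD of 0.12. Since the rule for choosing the genes used this contrast, nothing is read from the share among the 10.

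**Figure D1:**
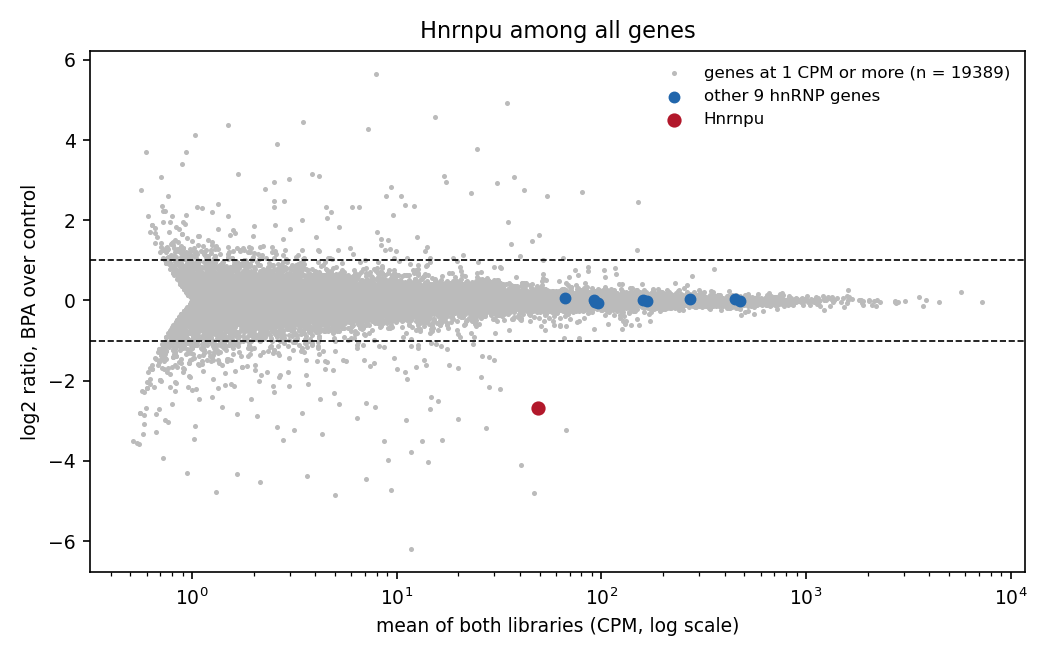
Each grey point is 1 of the 19389 genes at 1 CPM or more, with the mean of both libraries on a log axis in CPM and the log2 ratio of BPA over control on the vertical axis; dashed lines mark 2-fold. Hnrnpu lies at -2.68, while the other 9 hnRNP genes lie between -0.06 and 0.05.

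The paralogs of Hnrnpu differed little between the libraries. Hnrnpul1, which binds RNA and helps resect DNA breaks, had 473 CPM in the BPA pool, against 474 CPM in the control pool, a ratio of 0.998 (0.979 to 1.018). Hnrnpul2, which acts in the same repair step, had 94.5 CPM in the BPA pool, against 98.2 CPM in the control pool, a ratio of 0.962 (0.922 to 1.005). Neither library was clearly higher for these 2 genes, since both counting intervals hold 1, and the intervals place any difference between these libraries below 8% for either gene.

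Set against its paralogs within a library, which removes any effect of scaling, Hnrnpu was lower in the BPA pool. As the 2 paralogs differed little, these ratios largely restate the Hnrnpu ratio above and are no further support. There were 0.0277 Hnrnpu reads per Hnrnpul1 read in the BPA pool, against 0.178 in the control pool, 6.44-fold fewer (5.89 to 7.05). Per Hnrnpul2 read there were 0.139 Hnrnpu reads in the BPA pool, against 0.862 in the control pool, 6.21-fold fewer (5.63 to 6.85). The ratio of Hnrnpul1 to Hnrnpul2 was 5.01 in the BPA pool, against 4.83 in the control pool, a quotient of 1.04 (0.989 to 1.087). The intervals of the Hnrnpu pairs lay apart from that of the 2 paralogs, which follows from the choice of Hnrnpu for its difference.

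The sequences just upstream of Hnrnpu and Hnrnpul1 are shown because Hnrnpu was lower in the BPA pool while its close relative Hnrnpul1 differed little; the reads measure transcripts and not promoter activity. They are the 250 bases before a RefSeq start site in the GRCm38.p6 reference of C57BL/6J mice, on the minus strand in both cases, with GC boxes (GGGCGG on either strand, overlaps counted) in capitals. Hnrnpu lies at chr1:178337816-178338065 and Hnrnpul1 at chr7:25754760-25755009, both inside the RefSeq span of the gene, so starts farther upstream exist that these windows do not show.
Hnrnpu: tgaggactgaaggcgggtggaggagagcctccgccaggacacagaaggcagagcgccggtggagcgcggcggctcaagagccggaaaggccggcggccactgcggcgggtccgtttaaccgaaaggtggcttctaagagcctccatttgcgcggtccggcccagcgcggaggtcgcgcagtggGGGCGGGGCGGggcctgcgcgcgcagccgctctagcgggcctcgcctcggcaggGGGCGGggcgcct
Hnrnpul1: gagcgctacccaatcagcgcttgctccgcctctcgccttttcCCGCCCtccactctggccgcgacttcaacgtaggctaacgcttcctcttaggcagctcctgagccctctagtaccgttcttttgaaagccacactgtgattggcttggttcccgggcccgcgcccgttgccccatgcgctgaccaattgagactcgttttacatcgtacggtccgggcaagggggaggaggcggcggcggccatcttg

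The Hnrnpu window is 73.6% G and C, with 32 CpG dinucleotides and 3 GC boxes (a number reached by 8.47% of all windows), and on either strand it holds no CCAAT box, no TATA box (spelled TATAAA) and no estrogen response half-site (spelled GGTCA). The Hnrnpul1 window is 61.6% G and C, with 22 CpG dinucleotides, 1 GC box, 3 CCAAT boxes, 1 estrogen response half-site and no TATA box. Of 32851 RefSeq windows of this length, 32.7% held a GC box, 33.8% a CCAAT box, 12.4% a TATA box and 35.2% an estrogen response half-site, and the median window was 52.4% G and C with 6 CpG dinucleotides. A window was found for 9 of the 10 genes, all but Hnrnpul2. High G and C content was not particular to Hnrnpu. An Hnrnpr window was 74.0% G and C with 29 CpG dinucleotides and 2 GC boxes, and the Hnrnpk window 69.2% with 30 CpG dinucleotides. The Hnrnpa1 window was lower, at 46.0%. Among the members only Hnrnpm held a TATA box. Windows of Hnrnpa1, Hnrnpa2b1, Hnrnpk and Hnrnpl also lacked the half-site, while those of Hnrnpc and Hnrnpm and an Hnrnpr window held it. These matches are letters in a window and not shown sites.

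The A and B type proteins are paralogs with paired RNA recognition motifs. Hnrnpa1, a repressor of splice sites, had 67.3 CPM in the BPA pool, against 64.8 CPM in the control pool, a ratio of 1.04 (0.986 to 1.094). Hnrnpa2b1, which sorts and transports RNA, had 455 CPM in the BPA pool, against 443 CPM in the control pool, a ratio of 1.03 (1.01 to 1.05). Its interval excludes 1, but by 0.757% at the nearer bound, and this held in either direction for 43.1% of all genes at the floor. Reads of Hnrnpa1 are uncertain, as 28.2% of the 50-base words of its transcripts also occur in transcripts of 20 genes at other places, led by Gm10052.

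Hnrnpc, which binds runs of uridine and packages nascent RNA, had 92.4 CPM in the BPA pool, against 94.7 CPM in the control pool, a ratio of 0.976 (0.934 to 1.019). Hnrnpm, which binds stretches rich in G and U, had 166 CPM in the BPA pool, against 169 CPM in the control pool, a ratio of 0.984 (0.953 to 1.017). Both were slightly lower in the BPA pool, within the counting error. Hnrnpc shares 8.28% of its words with other places, Hnrnpm none.

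Hnrnpk, whose KH domains bind runs of cytidine, had 275 CPM in the BPA pool, against 268 CPM in the control pool, a ratio of 1.03 (1.002 to 1.055). Hnrnpl, which binds CA repeats, had 160 CPM in the BPA pool, against 159 CPM in the control pool, a ratio of 1.01 (0.975 to 1.043). Hnrnpr, a relative of Syncrip that acts in splicing and RNA transport, had 92.1 CPM in the BPA pool, against 91.8 CPM in the control pool, a ratio of 1.004 (0.961 to 1.049). Of these 3 only Hnrnpk had an interval above 1. Hnrnpk shares 14.5% of its words with other places and Hnrnpr 3.42%, with less for Hnrnpl.

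**Figure D2:**
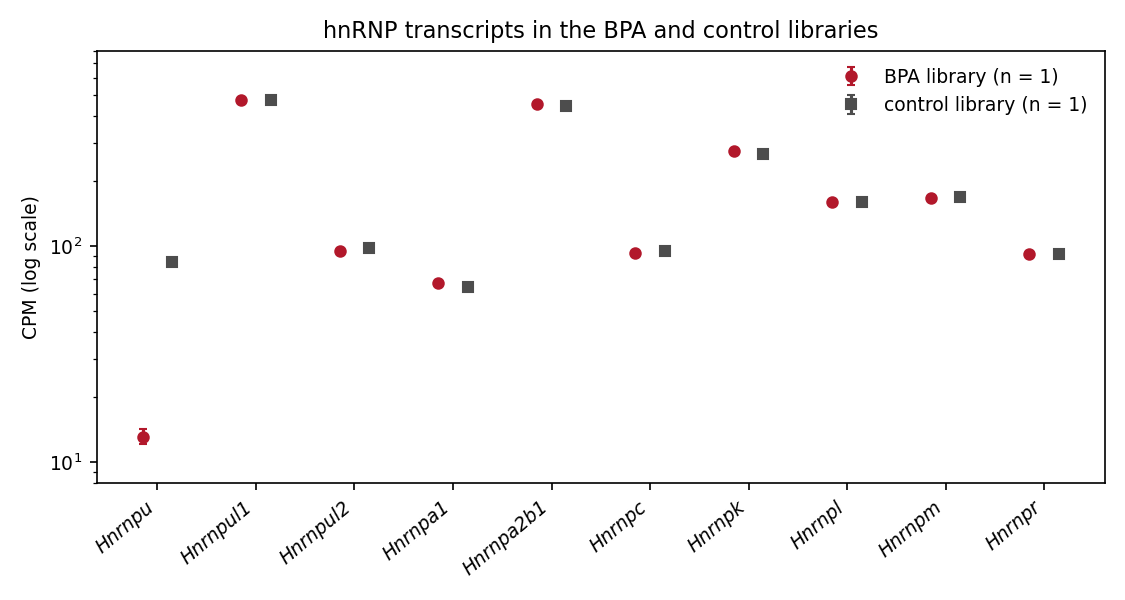
Level of each hnRNP gene in CPM on a log axis, red circles for the BPA library and grey squares for the control library, with exact 95% Poisson counting intervals (mostly smaller than the points). Hnrnpu is at 13.1 CPM in the BPA pool, against 84.6 CPM in the control pool, and the paired points of the other 9 genes nearly coincide.

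Together these 9 genes other than Hnrnpu summed to 1876 CPM in the BPA pool, against 1862 CPM in the control pool. Their differences ran from -3.75% for Hnrnpul2 to 3.88% for Hnrnpa1, with 5 above 0 and 4 below, a median log2 ratio of 0.01 and 2710 to 21477 reads behind each value. The median over all genes at the floor was 0.004. In 7 of the 9 the counting interval held 1, where 43.1% of all genes at the floor had an interval that excluded it. Hnrnpu made up 0.694% of the summed CPM of the 10 genes in the BPA pool, against 4.35% in the control pool. In the authors' deposited table the q-value of each of the 9 is 0.99996. An exact binomial test of the reads, which compares the libraries and not the conditions, called Hnrnpu lower and Hnrnpa2b1 higher (Benjamini-Hochberg adjusted p = 0.0234), where 17.4% of all genes were called lower and 17.3% higher.

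To compare levels between genes, CPM was divided by the length of all annotated exons of a gene. On this scale Hnrnpa2b1 ranked highest among the 10 genes, at 69.1 CPM per kb in the BPA pool, against 67.2 in the control pool. It was followed in both by Hnrnpul1 (54.7 and 54.8), Hnrnpk (42.5 and 41.4) and Hnrnpl (26.9 and 26.7). Outside the 10, the hnRNP genes Hnrnpf (97.1 and 89.3) and Pcbp1 (78.2 and 74.8) lay above Hnrnpa2b1 in both libraries. Hnrnpc, Hnrnpa1 and Hnrnpm lay close together, at 20.9 to 21.4 CPM per kb in the BPA pool, against 20.6 to 21.9 in the control pool, and their order differed between the libraries. By the length of the longest protein-coding transcript, Hnrnpm came before Hnrnpa1 and Hnrnpc in both libraries, with 42.2, 35.1 and 32.4 CPM per kb in the BPA pool, against 42.9, 33.8 and 33.3 in the control pool. Hnrnpul2 came next with 13.3 CPM per kb in the BPA pool, against 13.8 in the control pool. Hnrnpu ranked 10 of 10 in the BPA pool with 1.13 CPM per kb, against rank 9 in the control pool with 7.29 CPM per kb. There it lay above Hnrnpr, which had 4.15 CPM per kb in the BPA pool, against 4.13 in the control pool, and which has the longest exons, 22.2 kb in all. These lengths merge all transcripts, so genes with long rare transcripts are placed low.

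A set of 18 other hnRNP genes gave the setting. By the 2-fold rule 0 were higher and 0 lower in the BPA pool, set against 1.32% and 1.95% of all genes at the floor. The median log2 ratio was -0.05, with a range from -0.21 to 0.12. Lowest was Hnrnpa0, a binder of AU-rich messages, with 167 CPM in the BPA pool, against 194 CPM in the control pool. Hnrnpab, a repressor of transcription and binder of RNA, had 151 CPM in the BPA pool, against 171 CPM in the control pool. Rbmxl2, an autosomal copy of Rbmx that is made in germ cells and needed for meiosis in mice, had 81.1 CPM in the BPA pool, against 90.4 CPM in the control pool. Hnrnpa3 had 12.2 CPM in the BPA pool, against 13.5 CPM in the control pool. Counting intervals excluded 1 for 5 genes on the lower and 3 on the higher side, set against 21.3% and 21.8% of all genes.

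Ratios between related hnRNP genes were also compared in pairs without Hnrnpu. Hnrnpu was chosen for its difference, so the larger difference in its pairs was set by that choice and is no support. Of 11 pairs, the 9 without Hnrnpu had quotients of their ratios, BPA over control, from 0.973 (Hnrnpr over Syncrip) to 1.14 (Rbmx over Rbmxl2). The interval of Rbmx over Rbmxl2 was wide, from 0.940 to 1.38. Of these 9 counting intervals 8 held 1, with no share over other gene pairs to set beside that count. The exception was Hnrnpk over Pcbp2, both KH domain genes, with 1.01 reads per read in the BPA pool, against 0.912 in the control pool, a quotient of 1.10 (1.06 to 1.14). Hnrnpc over Raly was at 1.58 in the BPA pool, against 1.59 in the control pool, and Hnrnpa1 over Hnrnpa2b1 at 0.148 and 0.146. X-linked Rbmx and Hnrnph2 were each low, in both libraries, against the autosomal relative paired with it here. Per kb of exon, Rbmx stood at 0.0227 of the level of Rbmxl2 in the BPA pool, against 0.0200 in the control pool. Hnrnph2 stood at 0.130 of the level of Hnrnph1 in the BPA pool, against 0.127 in the control pool. Low levels were not particular to X-linked genes. Hnrnph2 had 3.82 CPM per kb in the BPA pool, against 3.65 in the control pool, and Rbmx 1.25 and 1.23. Autosomal Hnrnpa3 had 2.26 CPM per kb in the BPA pool, against 2.50 in the control pool, and autosomal Hnrnph3 5.41 and 5.96.

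Genes that work beside hnRNP proteins were also within 2-fold. Of 12 genes of the nuclear scaffold or with SAP domains, 0 were higher and 0 lower, set against 1.32% and 1.95% of all genes at the floor. Their median log2 ratio was 0.003. Counting intervals excluded 1 for 3 genes on the higher and 4 on the lower side, where 21.8% and 21.3% of all genes did so. Sarnp, a SAP domain protein of the messenger RNA export complex, had the largest difference with 17.5 CPM in the BPA pool, against 11.1 CPM in the control pool, a ratio of 1.57, at most 1.76 by its interval. Acin1, an exon junction partner with a SAP domain, had 222 CPM in the BPA pool, against 247 CPM in the control pool. Numa1, which anchors spindle poles, had 70.8 CPM in the BPA pool, against 66.2 CPM in the control pool. Safb, a scaffold protein related in build to Hnrnpu, had 112 CPM in the BPA pool, against 119 CPM in the control pool.

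Of 8 genes for the methylation and nuclear import of hnRNP proteins, 0 were higher and 0 lower, where 1.32% and 1.95% of all genes were. Their median log2 ratio was 0.06. Counting intervals excluded 1 for 4 genes on the higher and 0 on the lower side, where 21.8% and 21.3% of all genes did so. Kpna2, an importin, had 341 CPM in the BPA pool, against 295 CPM in the control pool, a ratio of 1.16 (1.13 to 1.18). Prmt1, which methylates arginine and glycine repeats, had 40.6 CPM in the BPA pool, against 35.5 CPM in the control pool, a ratio of 1.15 (1.07 to 1.23). Prmt3 had 5.31 CPM in the BPA pool, against 5.86 CPM in the control pool, and Prmt5 had 31.4 and 28.7 CPM in the same order.

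**Figure D3:**
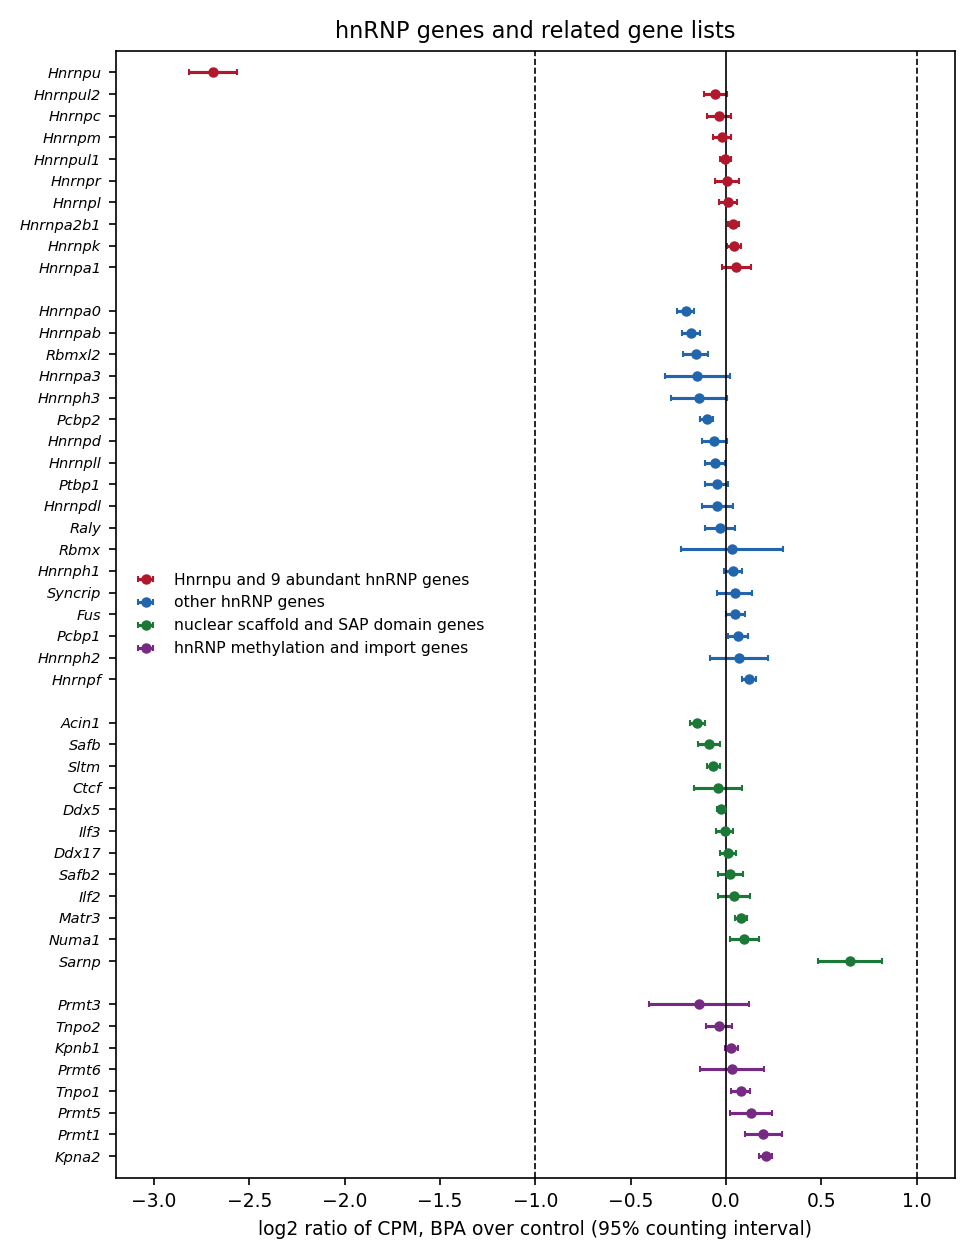
Log2 ratio of CPM, BPA over control, with 95% counting intervals, for the 10 hnRNP genes (red), 18 other hnRNP genes (blue), 12 scaffold and SAP domain genes (green) and 8 methylation and import genes (purple); dashed lines mark 2-fold. Hnrnpu alone lies beyond a dashed line among the genes drawn, and Sarnp, with a ratio of 1.57, is next in size.

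At its 3′ end Hnrnpu overlaps Cox20, a gene on the opposite strand that encodes an assembly factor of cytochrome c oxidase. On GRCm38, the build that mm10 names, RefSeq places Hnrnpu (gene ID 51810, minus strand) on chromosome 1 from 178321108 to 178338891, and the spans share 1586 bases, from 178321108 to 178322693. In GENCODE the exons share 804 bases, 6.93% of the exon length of Hnrnpu and 91.1% of that of Cox20. Cox20 had 11.5 CPM in the BPA pool, against 17.2 CPM in the control pool, a ratio of 0.669 (0.596 to 0.750). The library protocol describes no step that marks the strand, so reads from the shared bases cannot be told apart. The difference of Hnrnpu was -71.5 CPM and that of Cox20 -5.70 CPM, and their sum was 24.6 CPM in the BPA pool, against 102 CPM in the control pool. Both genes were lower in the BPA pool, and the part of the overlap in the result was not tested. Whether reads from the shared bases entered either count, and so the sum, was not tested either. Values along the gene were not analysed here.

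Other genes near Hnrnpu did not differ by 2-fold. Within 1 Mb, 10 genes besides Hnrnpu were at the floor, and 0 of the 10 were 2-fold apart. Over all genes at the floor 1.95% were lower and 1.32% higher, so 0 among 10 says little about the locus. Log2 ratios ran from -0.58 for Cox20 to 0.07 for Efcab2, with a lowest value of -0.37 for Smyd3 without Cox20. Besides Cox20, counting intervals excluded 1 for Adss (0.865 to 0.932), Smyd3 (0.608 to 0.971) and Efcab2 (1.003 to 1.102). The same held for 43.1% of all genes at the floor. On the higher-coordinate side the nearest was Efcab2, 67.1 kb away, with 82.0 CPM in the BPA pool, against 78.0 CPM in the control pool. On the other side, past Cox20, it was Desi2, with 3.11 CPM in the BPA pool, against 3.64 CPM in the control pool. Among the remaining 9 hnRNP genes, exons of 5 overlap another gene, by 0.538% (Hnrnpl) to 14.7% (Hnrnpm) of their exon length. Rmi1, which overlaps Hnrnpk, had 38.8 CPM in the BPA pool, against 37.1 CPM in the control pool. March2, a ubiquitin ligase gene that overlaps Hnrnpm, had 1.28 CPM in the BPA pool, against 1.87 CPM in the control pool. The partners of Hnrnpul2, Hnrnpl and Hnrnpr are AC129217.1, Gm44702 and Gm27022.

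**Figure D4:**
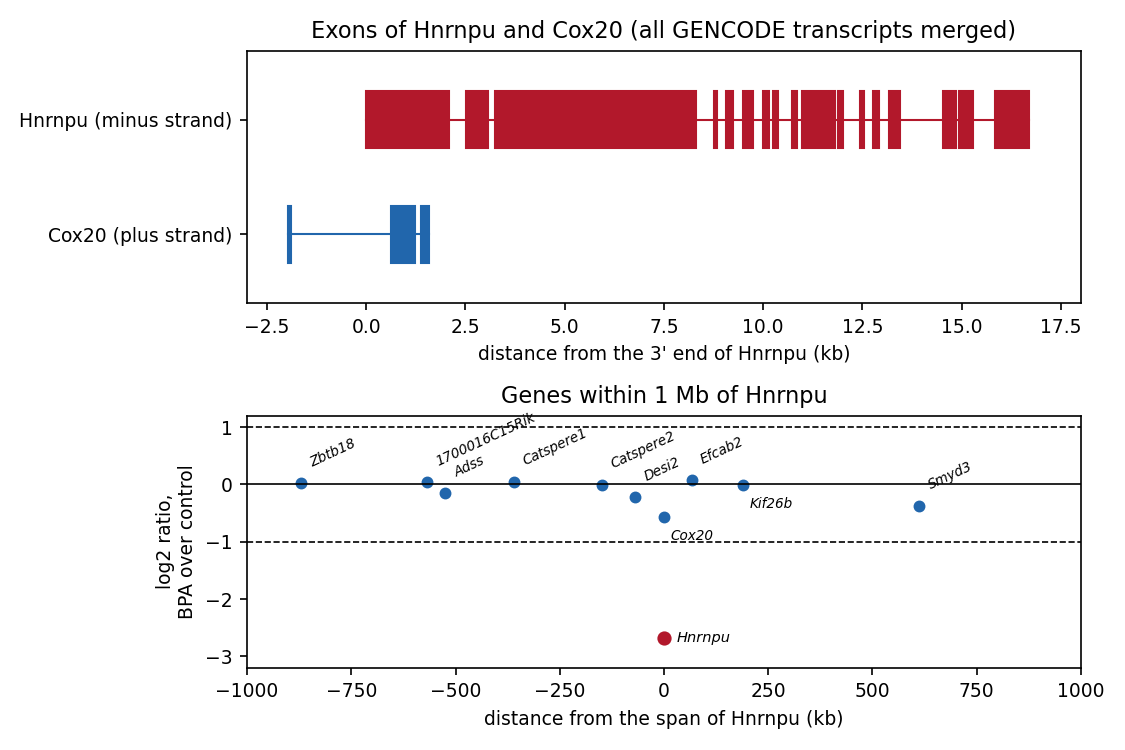
Top, merged exons of Hnrnpu (red) and Cox20 (blue) by distance in kb from the 3′ end of Hnrnpu; bottom, log2 ratio of BPA over control for genes within 1 Mb by distance in kb, with dashed lines at 2-fold. Cox20 lies under the 3′ end of Hnrnpu and has a log2 ratio of -0.58, against -2.68 for Hnrnpu.

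With 2 libraries, likeness in pattern comes down to the ratio alone. Restricted to genes averaging at least 10 CPM, those with a log2 ratio nearest to that of Hnrnpu were Atp5a1 (-2.71), Bsdc1 (-2.51) and Gm10488 (-2.94). Atp5a1, an ATP synthase subunit, had 3.79 CPM in the BPA pool, against 25.3 CPM in the control pool. In all, 12 of the 9979 genes with such a mean had a lower ratio than Hnrnpu.

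The tissue label was borne out by its markers in both libraries. All 10 elongating spermatid markers were at the floor and within 2-fold, summing to 21013 CPM in the BPA pool, against 19786 CPM in the control pool. Markers of spermatogonia (9 of 10 at the floor), spermatocytes, round spermatids and Leydig cells were likewise within 2-fold, with median log2 ratios of 0.13, 0.05, -0.01 and 0.10. Stra8 among spermatogonia (0.42), Pou5f2 among spermatocytes (0.36), Tssk3 among round spermatids (0.70), Prm1 among elongating spermatids (0.27) and Hsd3b6 among Leydig cells (0.81) had the largest log2 ratios. Of 10 Sertoli cell markers 9 lay above 0 and 1, Rhox8, was lower (log2 ratio -2.58), with a median of 0.35 and sums of 1016 CPM in the BPA pool, against 885 CPM in the control pool. Of 12 adipocyte markers 9 were lower in the BPA pool and 0 higher, led by Fabp4 and Cidec. Over all genes at the floor 1.95% were lower and 1.32% higher, which also stands beside the other counts of markers here. The count of 9 stayed at 1.5-fold and became 7 with a pseudocount of 1 CPM, 6 with a floor of 4 CPM and 5 at 4-fold. The median log2 ratio of the 12 was -1.70, which became -3.23 with listed zeros taken as 0 and -1.39 with a pseudocount of 1 CPM. The list summed to 329 CPM in the BPA pool, against 430 CPM in the control pool, of which Lipe made up 285 and 297 CPM in that order, and the other 11 markers summed to 43.3 CPM in the BPA pool, against 134 CPM in the control pool. In the BPA pool 5 of the 12 (Cidec, Cfd, Plin4, Lep and Pck1) are listed as 0 in the deposited table and took values under 1 CPM from its fold changes, against 0 of 12 in the control pool. Adipoq, Plin1 and Lipe were within 2-fold. Macrophage and blood markers (8 of 8 within 2-fold) had a median of -0.05, and of 10 epididymal markers only Wfdc10 reached the floor. The part of the Sertoli and adipocyte differences in the value of Hnrnpu was not tested.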

How the data were processed

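The tools named, per the submitters' processing notes, are HISAT2 2.0.4 and HTSeq 0.6.1, and the build is mm10. The sources used here do not give the annotation, the strand setting, the scaling or the test program. The deposited values are headed as read counts, but they are CPM scaled by the authors: they sum to 995266 for BPA and 997834 for control, and values under 1 CPM are written as 0. Where both CPM values are above 0, their log2 ratio matches the deposited log2 fold change within 4.98e-05. The authors also deposited a p-value and a q-value per row.

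All listed values above 0 were whole multiples of 1 step per library (0.0220 CPM for BPA, 0.0239 CPM for control), taken as 1 read. The fold change filled 812 BPA and 592 control values written as 0, all whole within 0.01 read. Ratios have Clopper-Pearson intervals, quotients of ratios exact conditional intervals of the odds ratio. The 2-fold rule was checked on simulated data with counting error only. These hold no spread between animals or library preparations, so the rule was not checked against that spread. Python 3.11.15 and SciPy 1.17.1 were used. The planned design assumed values listed without a limit at 1 CPM.

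Symbols came from RefSeq of GRCm38 (40269 rows matched), exons and 50-base words from GENCODE, in transcripts of genes at other places. Members and gene lists were chosen with earlier results of these data known. Named genes are the 10 members, up to 4 per related list and 2 per cell type list with the largest log2 ratio, genes that overlap or neighbour Hnrnpu and the 3 nearest in ratio. Adipoq, Plin1, Lipe, Cfd, Plin4, Lep and Pck1 were named after their values were seen. Alternatives changed the pseudocount, floor, scaling, fold, interval and the treatment of zeros.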

Additional observations from a re-analysis of the deposited data

How the results depend on the processing

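The log2 ratio of Hnrnpu lay between -2.69 and -2.60 under each pseudocount, scaling and zero setting tried, and Hnrnpu was the only member called under each fold, floor and interval setting. Its distance from Hnrnpul1 was -2.60 and from Hnrnpul2 -2.55 with a pseudocount of 1 CPM. Its place among the members per kb did not change when the longest protein-coding transcript set the length, an alternative chosen after seeing the data, while Hnrnpc, Hnrnpa1 and Hnrnpm changed places. Scaling moved the median over all genes by -0.004 to 0.004. Of all genes, 256 were higher and 379 lower by the main rule. These counts became 82 and 123 with a pseudocount of 1 CPM, 80 and 103 with a floor of 4 CPM, 828 and 1042 at 1.5-fold, 55 and 85 at 4-fold, 100 and 162 on the nearer interval bound, 686 and 937 with listed zeros as 0, and 1938 and 2582 with no floor and the deposited fold changes. With no floor, 3 genes within 1 Mb of Hnrnpu were 2-fold apart. An exact binomial test of the reads with Benjamini-Hochberg adjustment over 19389 genes, which compares the libraries and not the conditions, called 3362 genes higher (17.3%) and 3380 lower (17.4%). It called 1 member, Hnrnpa2b1, higher, and 2 genes within 1 Mb of Hnrnpu. The cause of these shifts was not tested beyond what each setting changes. No paired analysis was possible because each group has 1 library.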
